A study of Macaca mulatta with 9 samples.

Results

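The Fc receptor-like family was followed in whole blood RNA of 9 rhesus macaques (Macaca mulatta). Its 8 members, FCRL1, FCRL2, FCRL3, FCRL4, FCRL5, FCRL6, FCRLA and FCRLB, were chosen by name, and 8 of 8 were present among the 24371 genes of the deposited table. All animals are labelled wild type and were assigned at random to 3 groups of 3. One group was injected with PBS, the vehicle, and its descriptions carry the word Old. The other two groups received extracellular vesicles (EV, small membrane particles shed by cells): FBMSC_EV, whose source the labels give only as FBMSC, and ABPC_EV, from antler blastema progenitor cells (ABPC) per the series title. The labels give no age, dose or interval, and all comparisons with PBS share the same 3 control animals. Age-related phenotypes are the stated topic of the series, and the comparisons ask how blood RNA differed between vehicle and each vesicle preparation.

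Fc receptor-like proteins are relatives of the classical receptors for the constant part of antibodies. Most are surface receptors of B cells whose cytoplasmic tails carry tyrosine motifs of the inhibitory (ITIM) or activating (ITAM-like) kind, through which they tune signalling from the B cell antigen receptor by way of SYK and the phosphatases SHP-1 and SHP-2. FCRL1 carries activating-type motifs, FCRL2 to FCRL5 carry inhibitory motifs, in some of them beside activating-type ones, and FCRL6 is found on cytotoxic T cells and natural killer cells and binds MHC class II. FCRLA and FCRLB have no membrane anchor and stay inside the cell. In the RefSeq gene table of another assembly (T2T-MMU8v2.0), used only for neighbours, FCRL1, FCRL2, FCRL3, FCRL4 and FCRL5 follow each other as coding genes between CD5L and ETV3. FCRL6 lies between SLAMF8 and DUSP23, and FCRLB and FCRLA lie side by side between DUSP12 and FCGR2B. The members resemble each other in sequence, and how reads that fit several genes were divided is not given in the sources used here, so a single member's value may include reads of a relative.

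Values are given on 2 scales. As deposited, they are per-million values whose total is fixed within a library and which behave like TPM, that is, per gene length. The other scale divides each library by a median-ratio size factor, so that a typical gene keeps its level across libraries; the factors ranged from 0.330 to 2.52. The difference matters because red cell transcripts took 88.7% to 93.1% of the per-million total under PBS, 82.9% to 88.0% under FBMSC_EV and 71.3% to 82.9% under ABPC_EV. Recovered read numbers were 11.7 to 14.5 M per library (M standing for 1000000), of which 3.01 to 5.17 M under PBS, 5.15 to 6.90 M under FBMSC_EV and 6.80 to 8.09 M under ABPC_EV lay outside the red cell list. B cell markers were detected in every library (14 of 15 listed genes in the table, 0 of them at 0 anywhere). Their summed per-million level was 65.2 to 293 under PBS, 89.9 to 231 under FBMSC_EV and 246 to 486 under ABPC_EV; on the scaled values the ranges were 198 to 382, 91.2 to 241 and 97.7 to 273. PBS replicate 3 stood apart from the other PBS libraries, with a summed family level of 36.1 per-million units against 8.05 and 9.07, and the members' comparisons with PBS are also given without it. It was singled out by the members' own values. Leaving it out raised the change of every tested member against PBS as deposited, a direction that follows from that choice. The values without it are therefore no separate support. For ratios without it, no share of all genes without overlap is given. In bulk blood, fewer cells of a type and less RNA per cell cannot be told apart.

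The family was led by 3 genes. Averaged over the 9 libraries on the scaled values, FCRL1 stood at 6.74 ± 4.16, FCRL5 at 6.55 ± 4.68 and FCRLA at 5.73 ± 3.25 (SD, n = 9 each). These SDs include differences between libraries and groups that members share, so they do not measure the difference between members. The order of these 3 changed between groups, as the ratios within libraries below show. FCRL3 followed at 2.12 ± 1.92, FCRL2 at 1.16 ± 1.09 and FCRL6 at 0.792 ± 0.627. FCRL4 (0.152 ± 0.194) and FCRLB (0.0415 ± 0.0656) were close to the detection limit. Within libraries, FCRL1, FCRL5 and FCRLA each exceeded FCRL3 in 9 of 9.

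**Figure D1:**
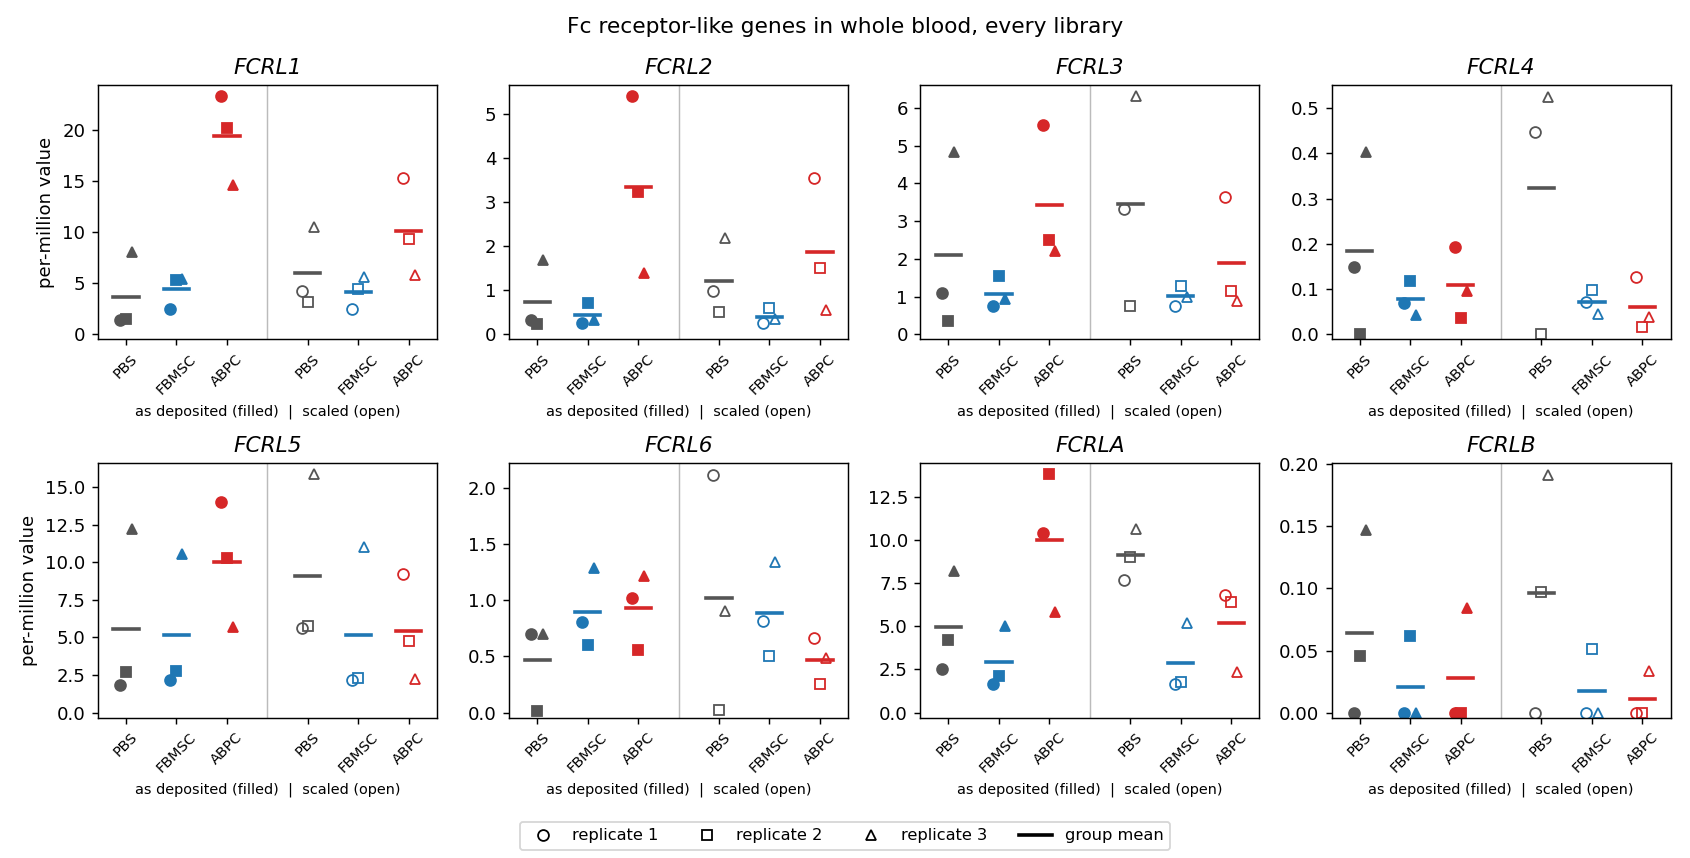
Value of each member in every library (1 panel per gene; left of the grey line per-million values as deposited, right of it the same values after median-ratio scaling; points are libraries, colours the groups). FCRL1 runs from 14.5 to 23.3 under ABPC_EV as deposited, above every other library, whereas its scaled values overlap the PBS range of 3.16 to 10.4.

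FCRL1, a receptor of naive and memory B cells with activating-type motifs, was highest in the ABPC_EV libraries as deposited. Its per-million values were 1.40, 1.48 and 8.0 in PBS replicates 1 to 3, 2.42, 5.33 and 5.36 under FBMSC_EV, and 23.3, 20.2 and 14.5 under ABPC_EV. The ABPC_EV libraries lay above all others, and the FBMSC_EV libraries fell inside the PBS range. These values rest on 90 to 425 recovered reads under PBS, 123 to 295 under FBMSC_EV and 536 to 1140 under ABPC_EV. After scaling, FCRL1 was 4.23, 3.16 and 10.4 under PBS, 2.45, 4.42 and 5.6 under FBMSC_EV, and 15.3, 9.31 and 5.77 under ABPC_EV. On that scale ABPC_EV still lay above every FBMSC_EV library but overlapped PBS, because PBS replicate 3 lay above ABPC_EV replicates 2 and 3; the other 2 PBS libraries were below all 3.

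FCRL2, an inhibitory receptor best known from memory B cells, was several times lower than FCRL1. It was listed at 0.323, 0.233 and 1.68 per-million units under PBS, at 0.253, 0.706 and 0.323 under FBMSC_EV and at 5.41, 3.24 and 1.39 under ABPC_EV. ABPC_EV did not overlap FBMSC_EV, and PBS replicate 3 lay above the lowest ABPC_EV library. Scaled values were 0.976, 0.495 and 2.19, then 0.256, 0.585 and 0.338, then 3.55, 1.5 and 0.554, in the same order of groups. Reads behind them ranged from 13 to 268. FCRL2 reached a per-million value of 1 in 4 libraries, 3 of them ABPC_EV, and so entered the test mainly through the group in which it was high.

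FCRL3, which binds secretory IgA and is also found on regulatory T cells and natural killer cells, was uneven within groups. Its per-million values were 1.09, 0.355 and 4.84 under PBS, 0.749, 1.54 and 0.946 under FBMSC_EV, and 5.55, 2.50 and 2.20 under ABPC_EV. After scaling the highest library was PBS replicate 3 at 6.32 and the lowest PBS replicate 2 at 0.755, so the PBS group spanned all others. Scaled FBMSC_EV values of 0.760, 1.27 and 0.988 were close together, while ABPC_EV had 3.65, 1.15 and 0.876.

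FCRL5, an IgG-binding receptor of B cells and plasma cells, was with FCRL1 and FCRLA among the 3 most abundant members. It was listed at 1.85, 2.71 and 12.2 per-million units under PBS, 2.14, 2.74 and 10.5 under FBMSC_EV and 14.1, 10.3 and 5.70 under ABPC_EV. In each of the first 2 groups replicate 3 was several times higher than the other libraries, and the groups overlapped. Scaled values were 5.6, 5.76 and 15.9 under PBS, 2.17, 2.27 and 11.0 under FBMSC_EV, and 9.24, 4.74 and 2.26 under ABPC_EV. All 3 groups overlapped on this scale, too.

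FCRL4, an IgA-binding inhibitory receptor of tissue memory B cells, was hardly detected in blood. It had 8, 0 and 18 reads in the PBS libraries, 3, 5 and 2 under FBMSC_EV and 8, 1 and 3 under ABPC_EV. The largest value was 0.402 per-million units in PBS replicate 3, and the 0 in PBS replicate 2 allows up to 0.0523 per-million units (3 reads, counting error only). No library reached a per-million value of 1 and the gene was not tested.

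FCRL6, the member of cytotoxic lymphocytes, was listed at 0.699, 0.0118 and 0.697 per-million units under PBS, at 0.806, 0.606 and 1.29 under FBMSC_EV and at 1.02, 0.556 and 1.22 under ABPC_EV. The groups overlapped. PBS replicate 2 had 1 read, where the other 8 libraries had 23 to 88. Scaled values ran from 0.0251 in that library to 2.12 in PBS replicate 1, so the PBS group held both extremes. FCRL6 reached a per-million value of 1 in 3 libraries, the minimum for a test.

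FCRLA, an intracellular protein of B cells that binds immunoglobulin in the secretory pathway, had its highest scaled values under PBS. Its per-million values were 2.54, 4.23 and 8.18 under PBS, 1.65, 2.13 and 4.99 under FBMSC_EV and 10.4, 13.8 and 5.86 under ABPC_EV. After scaling, the PBS libraries stood at 7.69, 9.0 and 10.7, above FBMSC_EV (1.67, 1.76 and 5.22) and above ABPC_EV (6.83, 6.39 and 2.33). FCRLA was the only member whose scaled PBS values lay above every library of both vesicle groups. Taken singly, 7.51% of tested genes lay wholly below PBS under ABPC_EV and 4.71% under FBMSC_EV. Both comparisons share the same PBS libraries, and the share of genes below PBS in both was not computed. FCRLB, the neighbour of FCRLA, had 0, 2 and 5 reads under PBS, 0, 2 and 0 under FBMSC_EV and 0, 0 and 2 under ABPC_EV. A count of 0 allows 0.0726 to 0.141 per-million units in these libraries, and FCRLB was not tested.

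Group differences were tested with limma on log2(value + 1) over the 10596 genes that reached a per-million value of 1 in at least 3 libraries, 6 of them members, with Benjamini-Hochberg adjusted p-values over all genes; this scale understates changes of low genes. Under ABPC_EV against PBS, as deposited, FCRL1 rose by 2.41 (SE 0.45, limma adjusted p = 0.000417), FCRL2 by 1.30 (SE 0.35, 0.00187) and FCRLA by 0.92 (SE 0.42, 0.0399). FCRL5 (1.01, adjusted p = 0.0657), FCRL3 (0.72, 0.0991) and FCRL6 (0.42, 0.169) did not pass. So 3 of 6 tested members were called higher, against 90.9% of all tested genes, and the members' median of 0.97 lay under the median of 1.41 for all genes. On this scale FCRL1 was the only tested member above that median, with 0.840% of tested genes having a larger log2 change. It was also the only member whose libraries did not overlap as deposited. ABPC_EV lay wholly higher for 85.4% and wholly lower for 0.0661% of genes. Without the added 1, relative to the B cell marker sum, FCRL2 (1.03) and FCRL6 (0.80) also lay above the median gene (0.53). A larger difference was seen for 12.4% and 26.0% of genes, and FCRL6 had 1 read in PBS replicate 2. FCRL3, FCRL5 and FCRLA lay below the median gene. At an unadjusted p under 0.05 the counts were 3 of 6 members and 91.3% of genes. FCRL2 entered the test mainly through the ABPC_EV libraries. The call of FCRL1 (log2 change from 2.08 to 3.03) and that of FCRL2 held without any single library. That of FCRLA was lost without ABPC_EV replicate 1 (adjusted p = 0.0809) or replicate 2 (0.142), and without PBS replicate 1 (0.203) or replicate 2 (0.0747), and also with a pseudocount of 0.1 (0.0513) or no filter on low values (0.132). When red cell genes were removed and the other genes brought back to a full total, 0 genes passed, and FCRL1 stood at 1.58 (adjusted p = 0.0912), FCRL2 at 1.09 (0.221) and FCRLA at -0.17 (0.789). Without PBS replicate 3, FCRL1 reached 3.03, FCRL2 1.66, FCRLA 1.29, and FCRL3 (1.31, adjusted p = 0.00339) and FCRL5 (1.68, adjusted p = 0.00665) passed as well. In that run 5 of 6 members passed, as did 9523 of all genes, where 9639 genes had passed with all libraries. FCRL5 also passed without ABPC_EV replicate 3 (0.0324) or any 1 FBMSC_EV library (0.0318 to 0.0405), and FCRL3 without ABPC_EV replicate 2 (0.0472).

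After median-ratio scaling the direction of 4 members turned in that comparison. FCRL1 (0.73, SE 0.43) and FCRL2 (0.30, SE 0.38) stayed above 0, while FCRLA (-0.80, SE 0.40), FCRL5 (-0.66), FCRL3 (-0.52) and FCRL6 (-0.32, but 0.19 by limma-voom on the recovered reads) were below it. By limma, 0 members and 0% of all genes passed; at an unadjusted p under 0.05 the counts were 0 members and 10.2% of genes, and limma-voom also called 0 genes. The members' median was -0.42 against 0.00 for all genes. Only 1.83% of genes had a larger scaled change than FCRL1, and 94.1% had a larger one than FCRLA, so these 2 members lay near opposite ends. The 3 FCRLA libraries under ABPC_EV all lay below PBS, as did those of 7.51% of genes, while 6.45% lay wholly higher. Without PBS replicate 3 the scaled changes were 1.16 (FCRL1), 0.60 (FCRL2), -0.69 (FCRLA), -0.21 (FCRL5), -0.05 (FCRL3) and -0.29 (FCRL6). By limma 0 members (adjusted p from 0.234 to 0.975) and 130 of all genes then passed.

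**Figure D2:**
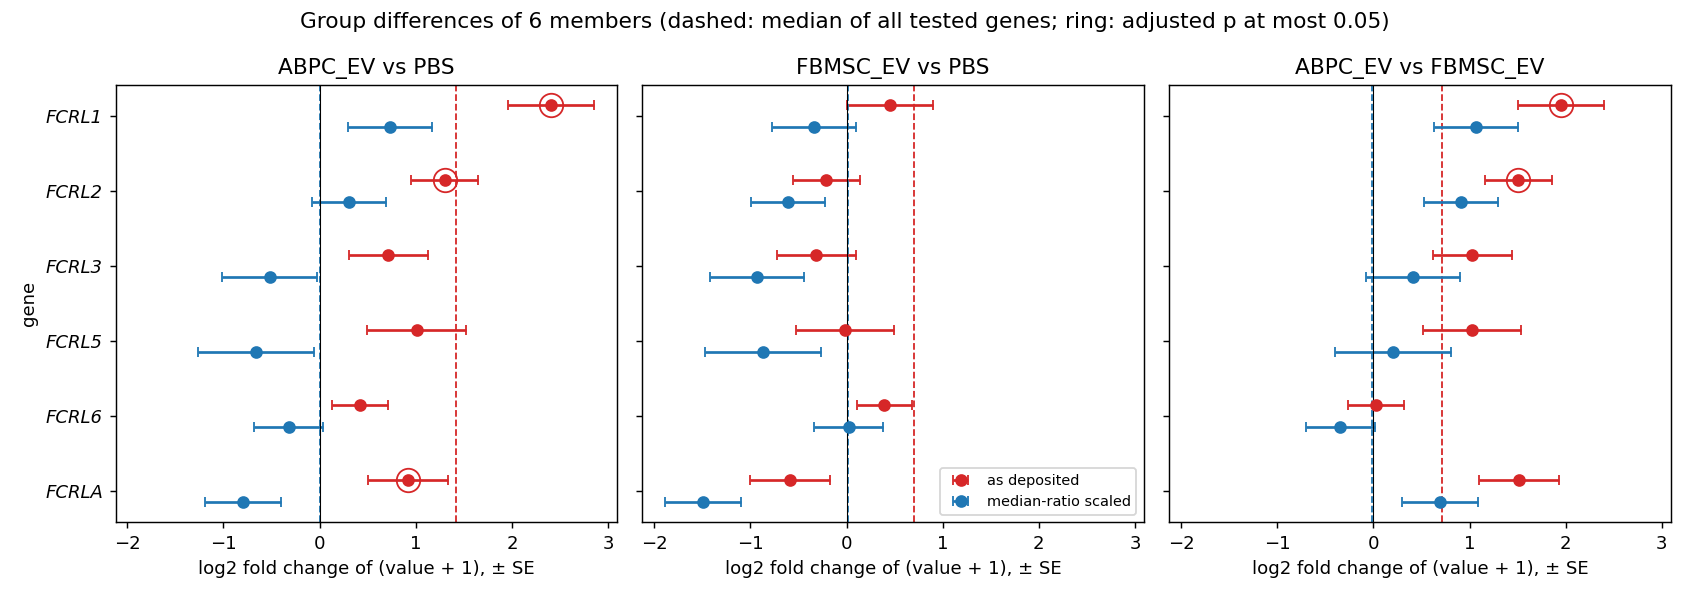
Log2 fold change of (value + 1) with its standard error for the 6 tested members, in 1 panel per comparison. Colours separate values as deposited from scaled values, rings mark an adjusted p of at most 0.05 and dashed lines the median of all tested genes. Rings appear for FCRL1, FCRL2 and FCRLA under ABPC_EV against PBS and for FCRL1 and FCRL2 under ABPC_EV against FBMSC_EV, all as deposited.

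For FBMSC_EV against PBS, 0 of 6 tested members passed limma's test as deposited, where 0.255% of genes were called higher and 0.00944% lower, and 0 members against 43.8% of genes had an unadjusted p under 0.05. The libraries overlapped for all 8 members, whereas they lay wholly higher for 50.9% and wholly lower for 0.0849% of tested genes. FCRL1 (0.45) and FCRL6 (0.39) were above 0, and FCRLA (-0.59), FCRL3 (-0.31), FCRL2 (-0.21) and FCRL5 (-0.01) below. On the scale of log2(value + 1), all 6 lay under the median of 0.70 for all genes, and their own median was -0.11. Without the added 1, relative to the B cell marker sum, FCRL6 stood at 2.10 against 0.96 for the median gene. A larger difference was seen for 1.41% of genes, but FCRL6 had 1 read in PBS replicate 2. FCRL1, FCRL2, FCRL3, FCRL5 and FCRLA lay below the median gene there, too. Without PBS replicate 3 the value of FCRL1 became 1.08 with a limma adjusted p of 0.0386, and FCRL2, FCRL3 and FCRL5 turned to 0.15, 0.28 and 0.66. In that run 1 of 6 members passed, as did 4526 of all genes, where 28 genes had passed with all libraries. On the scaled values FCRLA had the largest difference of the family at -1.49 (SE 0.40, unadjusted p = 0.0040, limma adjusted p = 0.799), which does not pass; 99.8% of genes had a larger change. Its 3 FBMSC_EV libraries lay below the 3 PBS libraries, as did those of 4.71% of genes, while 4.96% lay wholly higher. It was the 1 member with an unadjusted p under 0.05, which 4.83% of genes had. FCRL3 (-0.93), FCRL5 (-0.87), FCRL2 (-0.61) and FCRL1 (-0.34) were also below 0 and FCRL6 stood at 0.02. The scaled values without PBS replicate 3 were -1.38 (FCRLA), -0.46 (FCRL3), -0.42 (FCRL5), -0.31 (FCRL2), 0.09 (FCRL1) and 0.05 (FCRL6), with 0 members passing. The scaled B cell markers were also below 0 in this comparison (13 of 13 tested, median -0.76, 0 called), and their part in the members' values was not tested.

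Between the vesicle groups, FCRL1 rose by 1.95 (SE 0.45, limma adjusted p = 0.0388) and FCRL2 by 1.51 (SE 0.35, adjusted p = 0.0425) under ABPC_EV as deposited. These 2 of 6 tested members stand beside 0.585% of all genes called higher. A larger change than that of FCRL1 and FCRL2 was seen for 0.217% and 1.08% of genes. FCRL2 entered the test mainly through the ABPC_EV libraries, in which it was high, so its call and the count of 2 are no separate support. FCRLA (1.52, adjusted p = 0.0731), FCRL3 (1.03, 0.0751), FCRL5 (1.02, 0.110) and FCRL6 (0.02, 0.943) did not pass. The libraries of FCRL1, FCRL2, FCRL3 and FCRLA did not overlap. These were 4 of 6 tested members, all wholly higher, against 50.5% of tested genes wholly higher and 0.17% wholly lower. An unadjusted p under 0.05 was found for 4 of 6 members and 48.3% of genes. Both calls lie close to the threshold: FCRL1 lost it without FBMSC_EV replicate 1 (adjusted p = 0.0916) or ABPC_EV replicate 3 (0.0524), and FCRL2 without FBMSC_EV replicate 1 (0.0566) or replicate 3 (0.0645) or PBS replicate 1 (0.0621). Neither passed with a pseudocount of 0.5 (log2 changes of 2.07 and 1.94, adjusted p = 0.0568 and 0.0577), with no filter (1.95 and 1.51, 0.142 each) or with the red cell list taken out (1.57 and 1.94, 0.671 each). FCRLA passed without ABPC_EV replicate 1 (0.0299), FBMSC_EV replicate 3 (0.0329) or PBS replicate 2 (0.0476), and without PBS replicate 3 FCRLA and FCRL3 passed (0.0477 each). After scaling, FCRL1 (1.07, unadjusted p = 0.0345) and FCRL2 (0.91, unadjusted p = 0.0406) kept the largest values, with limma adjusted p of 0.922 and 0.924, and 0% of genes were called; 2 of 6 members and 5.36% of genes had an unadjusted p under 0.05. FCRL1 was the member whose scaled libraries did not overlap, as for 4.23% of genes wholly higher, beside 6.8% wholly lower.

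A ratio of 2 genes within a library does not depend on the scaling, so the members were set against the summed B cell markers of the same library. FCRL1 amounted to 2.14%, 1.31% and 2.73% of that sum in the PBS libraries, 2.69%, 3.69% and 2.32% under FBMSC_EV and 5.61%, 4.16% and 5.91% under ABPC_EV. ABPC_EV lay above both other groups. Its mean of 5.23% ± 0.939 was 2.62-fold that of PBS (2.06% ± 0.716) and 1.81-fold that of FBMSC_EV (2.90% ± 0.709; SD, n = 3 each; folds are of geometric means), with a two-sided exact permutation p of 0.1 for each, the smallest that 3 against 3 allow, and 0.42 after adjustment over 21 such tests. The same ratio computed for every tested gene did not overlap upward for 8.31% of genes against PBS and for 0.321% against FBMSC_EV. Relative to this sum the median gene differed by 0.53 on the log2 scale against PBS and FCRL1 by 1.39; 3.75% of genes had a larger difference. Against FBMSC_EV the median gene stood at -0.42 and FCRL1 at 0.86. Without PBS replicate 3, FCRL1 relative to the sum was 3.09-fold PBS under ABPC_EV and 1.70-fold under FBMSC_EV, above both PBS libraries in each (exact permutation p = 0.2, the smallest that 3 against 2 allow).

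FCRL2 amounted to 0.494%, 0.205% and 0.572% of the B cell sum under PBS, 0.281%, 0.489% and 0.140% under FBMSC_EV and 1.30%, 0.667% and 0.567% under ABPC_EV. ABPC_EV lay above every FBMSC_EV library (2.95-fold, exact permutation p = 0.1, adjusted 0.42) and just overlapped PBS (2.04-fold, exact permutation p = 0.2, adjusted 0.60). It lay above PBS once PBS replicate 3 was left out (2.49-fold, exact permutation p = 0.2). Set against MS4A1 alone, which encodes the B cell surface protein CD20, FCRL2 also lay above PBS in all ABPC_EV libraries (exact permutation p = 0.1), as did 4.52% of genes, whereas FCRL1 under ABPC_EV then overlapped FBMSC_EV (exact permutation p = 0.2) and under FBMSC_EV lay above PBS (exact permutation p = 0.1), as did 19.1% of genes.

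FCRL5 and FCRL3 showed no separation from the B cell sum. FCRL5 was 3.13% ± 0.926 of it in the PBS libraries, 2.95% ± 1.43 in those of FBMSC_EV and 2.61% ± 0.685 in those of ABPC_EV (SD, n = 3 each), and FCRL3 was 1.21% ± 0.781, 0.769% ± 0.331 and 0.916% ± 0.412. Exact permutation p-values ranged from 0.5 to 0.8 over their 6 comparisons (adjusted 0.75 to 0.884). With 3 libraries per group this does not show that they were alike. Their folds against PBS without PBS replicate 3 were 0.982 (FCRL5) and 1.18 (FCRL3) under ABPC_EV and 1.06 and 0.987 under FBMSC_EV. Against MS4A1 alone FCRL5 was 15.03% ± 0.227 in the ABPC_EV libraries, all of them below PBS at 17.8% ± 2.56 (SD, n = 3 each; exact permutation p = 0.1), as were 0.17% of genes. That ratio was 0.919-fold PBS without PBS replicate 3 (exact permutation p = 0.2).

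FCRLA was 3.89%, 3.72% and 2.79% of the B cell sum under PBS, 1.83%, 1.47% and 2.16% under FBMSC_EV and 2.50%, 2.85% and 2.38% under ABPC_EV. FBMSC_EV lay below both other groups. Its level was 0.525-fold that of PBS, and ABPC_EV was 1.43-fold FBMSC_EV (exact permutation p = 0.1 and adjusted 0.42 for each); 0.151% of genes lay wholly below PBS on this ratio under FBMSC_EV and 0.321% wholly above FBMSC_EV under ABPC_EV. ABPC_EV overlapped PBS (0.749-fold, exact permutation p = 0.2, adjusted 0.60), and against MS4A1 alone it overlapped FBMSC_EV as well (exact permutation p = 0.2). Relative to the sum and without PBS replicate 3, FCRLA lay below PBS under ABPC_EV (0.676-fold) and under FBMSC_EV (0.473-fold; exact permutation p = 0.2 for each).

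FCRL6 was compared with the sum of 16 cytotoxic and natural killer markers, which was 77.5 to 271 per-million units under PBS, 357 to 1104 under FBMSC_EV and 730 to 1779 under ABPC_EV. FCRL6 amounted to 0.903%, 0.00436% and 0.436% of that sum under PBS, 0.226%, 0.0549% and 0.313% under FBMSC_EV and 0.114%, 0.0762% and 0.0687% under ABPC_EV. The groups overlapped (exact permutation p = 0.4 to 1). Without PBS replicate 2 the log2 difference of ABPC_EV from PBS moved from -0.51 to -2.90, so that library decides its size; without PBS replicate 3 it was 0.42. FCRL3 made up 1.53% ± 1.45 of the same sum in PBS blood, 0.193% ± 0.0480 after FBMSC_EV and 0.362% ± 0.249 after ABPC_EV (n = 3 each, SD). Its exact permutation p was 0.4 against PBS for both preparations and 0.5 between them. With PBS replicate 3 left out, its folds against PBS moved from 0.229 to 0.439 under FBMSC_EV and from 0.361 to 0.692 under ABPC_EV. Relative to the cytotoxic sum the median gene differed from PBS by -0.77 under ABPC_EV and -0.75 under FBMSC_EV on the log2 scale. FCRL6 (-0.51 and 0.39) lay above it, with 26.0% and 1.41% of genes larger, but had 1 read in PBS replicate 2. FCRL3 (-1.47 and -2.13) lay below it, with 89.0% and 99.0% of genes larger. Between the vesicle groups the median gene stood at -0.02, FCRL6 at -0.90 and FCRL3 at 0.66.

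**Figure D3:**
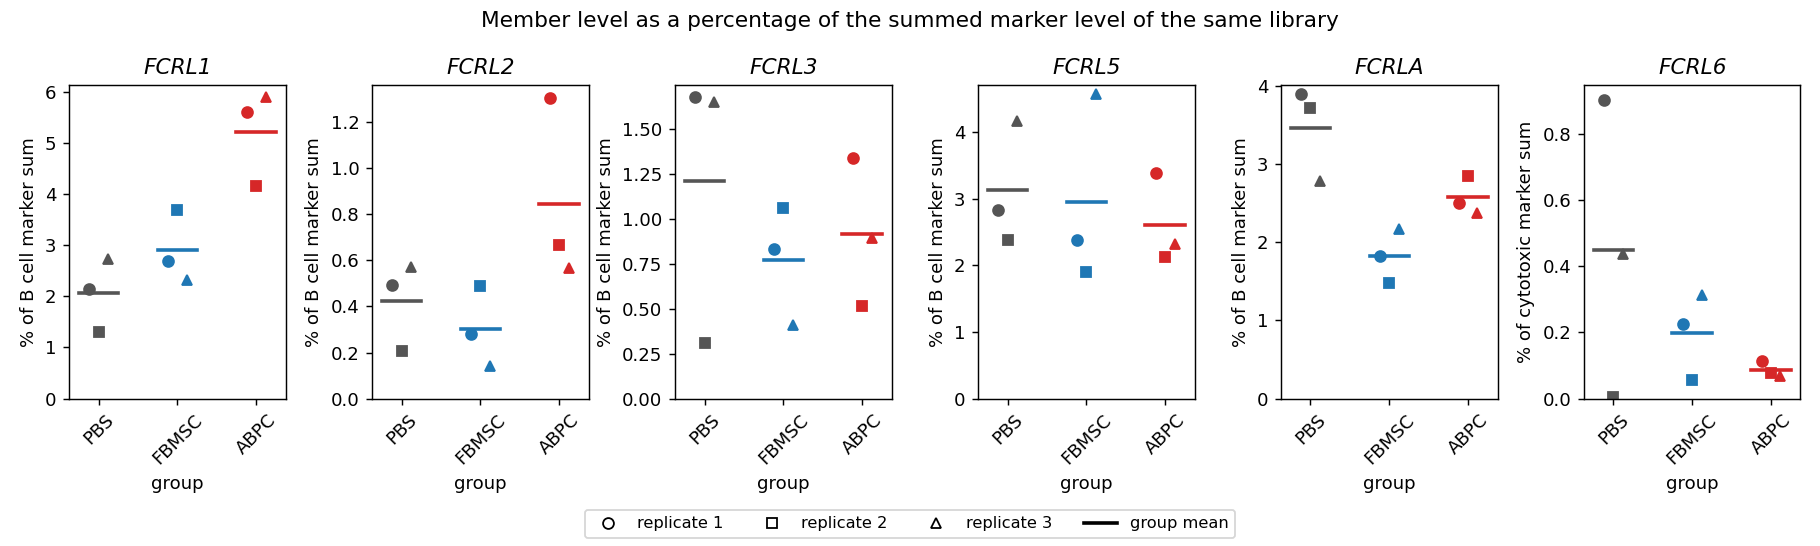
Each tested member as a percentage of the summed marker level of its own library (B cell markers, or cytotoxic markers for FCRL6; points are libraries, lines the group means). FCRL1 is highest in the 3 ABPC_EV libraries (4.16% to 5.91%), and FCRLA is lowest in the 3 FBMSC_EV libraries (1.47% to 2.16%).

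Ratios between members were then computed for all 15 pairs of the 6 tested genes, a step chosen after their values were seen. The libraries of ABPC_EV and PBS did not overlap for 5 of 15 pairs and those of FBMSC_EV and PBS for 2. Those of the vesicle groups did not overlap for 3. Without PBS replicate 3 the first 2 counts were 6 and 3. The pairs share their genes, and no share over all gene pairs was computed, so these counts are a description only. FCRL1 over FCRL5 was 0.756, 0.549 and 0.656 under PBS, 1.13, 1.95 and 0.509 under FBMSC_EV and 1.66, 1.96 and 2.55 under ABPC_EV. Thus the PBS libraries all had less FCRL1 than FCRL5, and the ABPC_EV libraries all had more. The ratio was 3.12-fold higher under ABPC_EV than under PBS (exact permutation p = 0.1, 0.45 after adjustment over 45 tests), and 3.14-fold without PBS replicate 3. Relative to FCRL5, 7.12% of all tested genes lay wholly higher under ABPC_EV than under PBS.

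FCRL1 over FCRLA was 0.550, 0.351 and 0.978 under PBS, 1.47, 2.51 and 1.07 under FBMSC_EV and 2.24, 1.46 and 2.48 under ABPC_EV. It was higher than under PBS in every library of both vesicle groups, 3.50-fold under ABPC_EV and 2.76-fold under FBMSC_EV (exact permutation p = 0.1 and adjusted 0.45 for each). This was common, because 33.3% of genes under ABPC_EV and 72.9% under FBMSC_EV lay wholly higher than under PBS relative to FCRLA. FCRL2 was above PBS relative to FCRL5 (2.43-fold) and to FCRLA (2.73-fold) in all ABPC_EV libraries, as was FCRL1 relative to FCRL3 (2.93-fold; 1.26% of genes), each with an exact permutation p of 0.1, adjusted 0.45. The other pair under FBMSC_EV was FCRL1 over FCRL2 (2.09-fold above PBS, exact permutation p = 0.1, adjusted 0.45), where 31.3% of genes did likewise. Between the vesicle groups FCRL1 over FCRL6 (4.48-fold; 11.1% of genes) and FCRL2 over FCRL3 (2.47-fold; 0.123% of genes) were wholly higher and FCRL6 over FCRLA was wholly lower (0.284-fold; 4.15% of genes) under ABPC_EV, with the same exact permutation p and adjusted p.

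When PBS replicate 3 was left out, FCRL1 over FCRLA was 4.57-fold PBS under ABPC_EV and 3.6-fold under FBMSC_EV. FCRL2 under ABPC_EV was then 2.53-fold PBS over FCRL5 and 3.68-fold over FCRLA. FCRL1 was 2.62-fold over FCRL3 under ABPC_EV and 2.02-fold over FCRL2 under FBMSC_EV. All of these had an exact permutation p of 0.2, and FCRL5 over FCRLA was the pair added in both vesicle groups (1.45-fold and 2.23-fold).

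**Figure D4:**
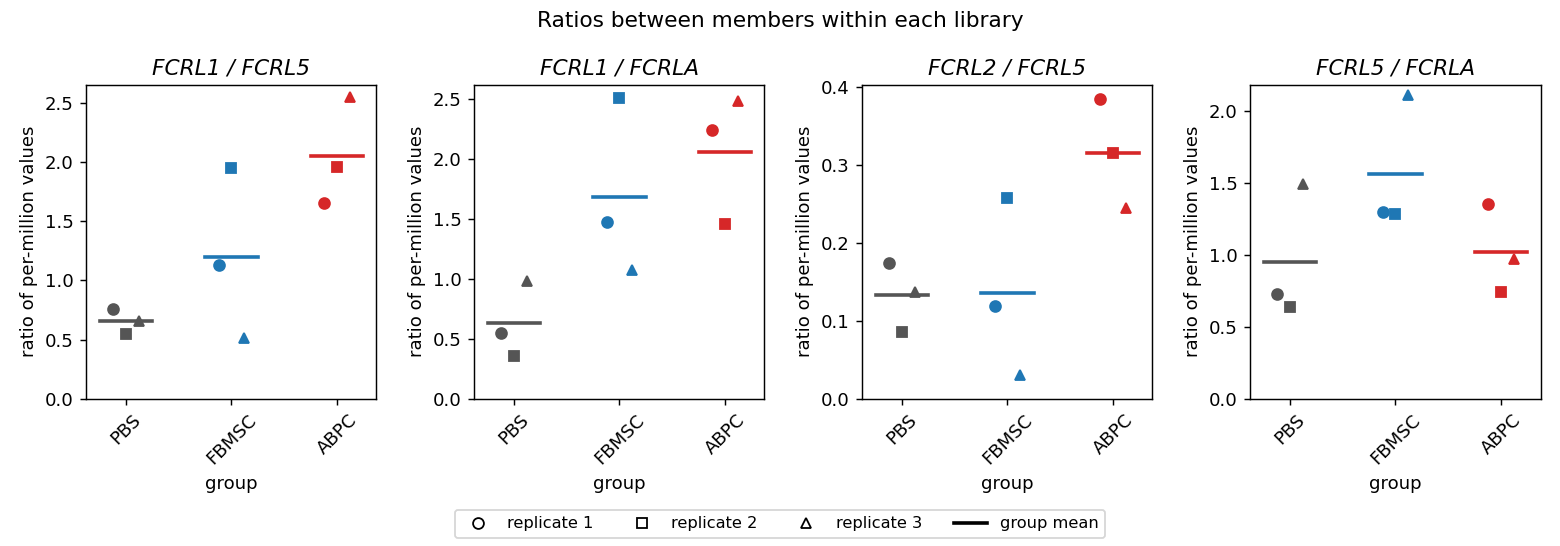
Ratios of per-million values between members within each library, for 4 pairs (points are libraries, lines the group means). FCRL1 over FCRL5 lies between 0.549 and 0.756 in the PBS libraries and between 1.66 and 2.55 in the ABPC_EV libraries.

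The make-up of the family followed from these ratios. FCRL1 took 18.6% ± 3.08 of the summed family level in the PBS libraries, 31.0% ± 8.80 in those of FBMSC_EV and 41.8% ± 4.31 in those of ABPC_EV, and FCRLA 33.6% ± 12.2, 19.2% ± 2.77 and 21.2% ± 5.40 in that order (SD, n = 3 each). The share of FCRL5 was 28.9% ± 5.46, 30.7% ± 12.6 and 20.7% ± 2.60. In PBS replicate 3 these shares were 22.1% (FCRL1), 22.6% (FCRLA) and 33.7% (FCRL5), and in PBS replicates 1 and 2 FCRL1 took 17.4% and 16.4%, FCRLA 31.5% and 46.7% and FCRL5 23.0% and 29.8%. FCRLA or FCRL5 was the leading member in each PBS library and FCRL1 in each ABPC_EV library. Under FBMSC_EV, FCRL1 led in replicates 1 (29.9%) and 2 (40.3%) and FCRL5 in replicate 3 (44.9%). The FCRL1 share under FBMSC_EV (22.8% to 40.3%) also lay wholly above the PBS range of 16.4% to 22.1%. The summed family level was 8.05 to 36.1 per-million units under PBS, 8.08 to 23.5 under FBMSC_EV and 31.1 to 59.9 under ABPC_EV; scaled, it was 19.3 to 47.1, 8.20 to 24.5 and 12.4 to 39.3. As deposited ABPC_EV lay above FBMSC_EV but overlapped PBS through PBS replicate 3, and on the scaled values all 3 groups overlapped.

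**Figure D5:**
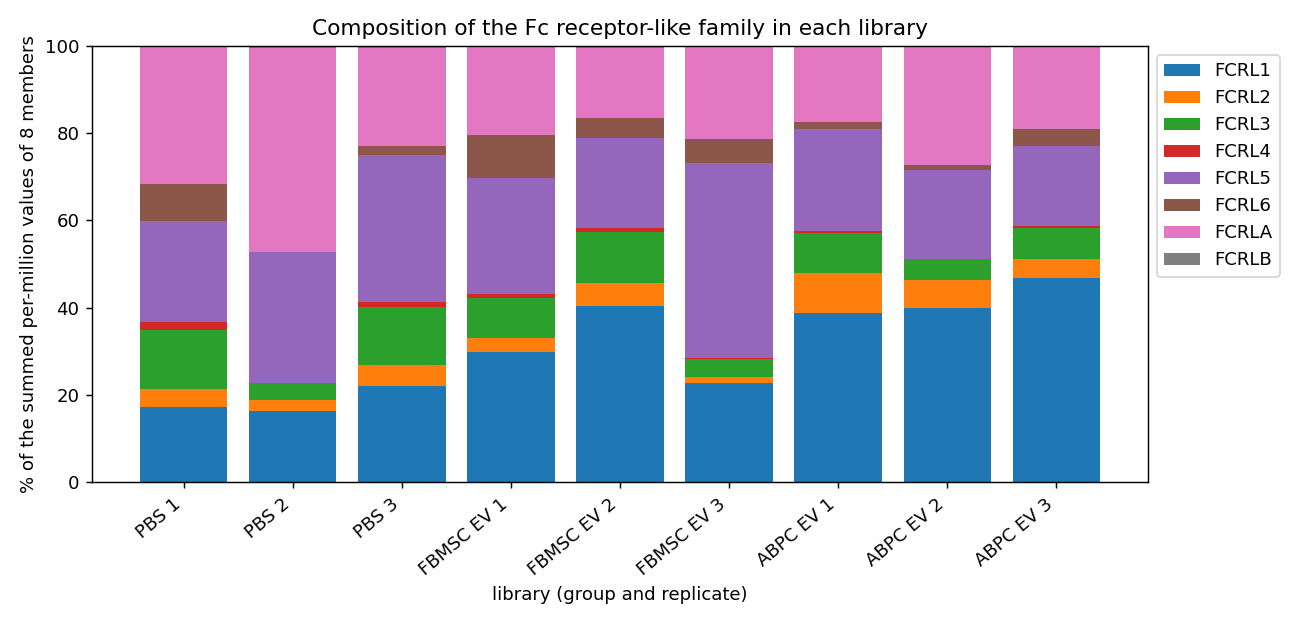
Share of each member in the summed Fc receptor-like level of each library, in percent (stacked bars, 1 per library, each adding to the whole). The FCRL1 part runs from 16.4% to 22.1% in the PBS libraries, from 22.8% to 40.3% under FBMSC_EV and from 38.9% to 46.8% under ABPC_EV.

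Genes that work with the family were read from lists chosen by function. Of the classical antibody receptors, 9 of 10 tested were called higher under ABPC_EV than under PBS as deposited, beside 90.9% of all genes, and 0 of 10 in either other comparison; their median of 1.40 lay beside 1.41 for all genes. FCGR2B, the inhibitory IgG receptor of B cells and the neighbour of FCRLA, rose by 1.17 (SE 0.52, limma adjusted p = 0.0352), and FCMR, the IgM receptor, by 1.87 (SE 0.47, adjusted p = 0.00104). After scaling they stood at -0.85 and -0.05, with 0 of 10 called. The kinases, phosphatases and adaptors next to the receptors gave 15 of 15 called higher in that comparison as deposited (median 1.64), again beside 90.9% of all genes, and 0 of 15 after scaling (median -0.19). Among them PTPN6, which encodes SHP-1, rose by 1.64 (SE 0.44, limma adjusted p = 0.00189) as deposited and stood at -0.35 after scaling, and SYK rose by 1.36 (SE 0.46, adjusted p = 0.00897) and stood at -0.61.

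Lists for the cells that carry these receptors were read in the same way. As deposited, 13 of 13 tested B cell markers, 8 of 8 plasma cell genes, 16 of 16 cytotoxic genes, 10 of 10 T cell genes, 3 of 3 regulatory T cell genes and 6 of 6 genes of atypical, age-associated B cells were called higher under ABPC_EV than under PBS, as were 90.9% of all genes. Full lists are therefore close to the background. For ABPC_EV against PBS, 3 of 6 members is a lower share, on a scale that understates changes of low genes. Without the added 1, relative to the B cell sum, FCRL1 (1.39), FCRL2 (1.03) and FCRL6 (0.80) lay above the median gene (0.53). FCRL3, FCRL5 and FCRLA lay below it, and FCRL6 had 1 read in PBS replicate 2. The lists' medians were 1.40, 1.73, 2.22, 2.24, 1.14 and 1.81, beside 1.41 for all genes and 0.97 for the members. After scaling 0 were called and the medians were -0.23, -0.04, 0.61, 0.40, 0.36 and 0.04, beside 0.00 and -0.42. Under FBMSC_EV against PBS 0 members of these lists were called. Under ABPC_EV against FBMSC_EV the only call in them was FCER2, the low-affinity IgE receptor of B cells, which rose by 1.45 (SE 0.34, limma adjusted p = 0.0411). The part of these cell types in the members' values was not tested beyond the ratios given.

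The genes whose scaled log2 values followed each member most closely over the 9 libraries are given as a description; all values share their libraries' size factors and depth. FCRL5 was followed by the B cell genes BANK1 (Pearson r = 0.985), TNFRSF13B (0.975) and CLEC17A (0.975). FCRL1 was followed by SBSN (0.964), GEMIN5 (0.938) and LOC114675405 (0.933), and FCRL2 by SEL1L3 (0.960), B3GALNT2 (0.957) and SBSN (0.911). FCRL3 was followed by GPR18 (0.942), PRMT6 (0.934) and CTNNBIP1 (0.930). FCRLA was followed by PIGS (0.955), TESPA1 (0.947) and FMNL3 (0.946), and FCRL6 by PRPF38A (0.967), LOC114671862 (0.937) and DNLZ (0.919).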

How the data were processed

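Whole blood RNA of 9 animals, 3 per group, was analysed. Libraries were made with an Illumina kit and read in pairs, per the labels' protocols; the build was Mmul_10, per the submitters' processing notes. No source used here names the aligner or the counting program. The deposited values are log2 values; the lowest one shows that the authors added 0.5 to per-million values before the log2. These were undone. Whole reads were recovered for 21550 of 21551 genes above 0 in 2 or more libraries (tolerance 0.001, up to 0.03 for the most abundant), including 8 of 8 members, and served for depth and limma-voom. limma 3.58.1 (R 4.3.3) with a trend was fitted to log2(value + 1) for genes of at least 1 in 3 or more libraries, all 9 in 1 fit, adjusted by Benjamini-Hochberg at 0.05, as deposited and after median-ratio scaling (13350 genes). Ratios were tested by exact permutation (scipy 1.17.1). The fit was tested on simulated data. The members, lists and tests were chosen with earlier results of these data known. All 8 members are named, as are the 3 genes most like each tested member; list genes come from the most abundant or those with the smallest p. A further gene list is not reported here.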

Additional observations from a re-analysis of the deposited data

How the results depend on the processing

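With 3 animals per group, exact tests cannot go below p = 0.1, and low members rest on few reads. After scaling, 0 members passed limma's test in every comparison and alternative run. As deposited, taking out the red cell list left 0 members called for ABPC_EV against PBS (3 as reported, 2 with no filter or a pseudocount of 0.1, 4 with only the 2 groups fitted) and 0 for ABPC_EV against FBMSC_EV (2 as reported); the latter count was also 0 with a pseudocount of 0.5 or 0.1, 0 with no filter and 1 with only the 2 groups fitted. Leaving out 1 library gave 2 to 5, 0 to 4 and, for FBMSC_EV against PBS, 0 to 1 (without PBS replicate 3).

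Counts over all genes as deposited moved more. For ABPC_EV against FBMSC_EV, 68 became 0 without the red cell list, 11 with no filter, 23 with only 2 groups, 9 with a pseudocount of 0.1 and 45 to 4863 with 1 library left out (4863 without ABPC_EV replicate 1, 2512 without PBS replicate 3). For FBMSC_EV against PBS, 28 became 0, 1, 1063 and 184 under the same settings and 13 to 4526 with 1 library left out (4526 without PBS replicate 3). For ABPC_EV against PBS, 9639 became 0 without the red cell list and 8728 to 9699 with 1 library left out. After scaling, 0 became at most 5 genes under other settings, and with 1 library left out it was 0 to 130 for ABPC_EV against PBS (130 without PBS replicate 3), 0 to 2 for FBMSC_EV against PBS and 0 to 1 for ABPC_EV against FBMSC_EV.

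The deviations of same-numbered animals had correlations from -0.25 to 0.28. With 3 libraries per group these cannot exclude a shared batch or pairing, which the labels do not name. With a replicate block, 3, 0 and 3 members passed as deposited, where 3, 0 and 2 passed without it. FCRLA entered for ABPC_EV against FBMSC_EV (limma adjusted p = 0.0374). All genes gave 3406 for ABPC_EV against FBMSC_EV (68 without the block) and 44 for FBMSC_EV against PBS (28 without it).

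Some directions turned; the cause was not tested. Without the red cell list, FCRL5 (1.01 to -0.017) and FCRLA, a called gene (0.92 to -0.17), turned for ABPC_EV against PBS and FCRL6 (0.02 to -0.44) for ABPC_EV against FBMSC_EV. By limma-voom, scaled FCRL6 became 0.19 for ABPC_EV against PBS, and with a pseudocount of 0.1 FCRL5 became 0.0017 for FBMSC_EV against PBS. With 1 library left out, log2 changes as deposited ranged for FBMSC_EV against PBS from -0.41 to 0.15 (FCRL2), -0.77 to 0.28 (FCRL3) and -0.60 to 0.66 (FCRL5), and for ABPC_EV against FBMSC_EV from -0.089 to 0.17 (FCRL6). Scaled ranges were -0.64 to 0.095 (FCRL1, FBMSC_EV against PBS), -0.10 to 0.68 (FCRL2, ABPC_EV against PBS), -0.21 to 0.84 (FCRL5, ABPC_EV against FBMSC_EV), and for FCRL6 -0.74 to 0.062 (ABPC_EV against PBS) and -0.39 to 0.41 (FBMSC_EV against PBS). Log2 ratios to the B cell sum ranged for FCRL3 from -0.97 to 0.25 (ABPC_EV against PBS) and -0.14 to 0.62 (against FBMSC_EV), and for FCRL5 from -0.37 to 0.27 (ABPC_EV against FBMSC_EV) and -0.52 to 0.12 (FBMSC_EV against PBS). FCRL6 to the cytotoxic sum, at -0.51 and 0.39 with all libraries, ranged from -2.90 to 0.95 (ABPC_EV against PBS) and -2.0 to 1.85 (FBMSC_EV against PBS). Leaving 1 library out of the 10 pair ratios without overlap, an alternative chosen after seeing the data, cannot turn their direction and says nothing of stability. The values without PBS replicate 3 for other pairs and for FCRL5 over MS4A1 were also added after seeing the data.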
